A study of Rosa rugosa with 4 samples.

Results

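Cytosolic ribosomal proteins were compared between leaf and petal tissue of Rosa rugosa, a rose shrub with scented flowers. Members were the assembled transcripts (contigs) whose first database hit named a plant of the rose family genera Fragaria, Rosa, Prunus, Malus or Pyrus and whose hit text named a 40S, 60S or 60S acidic ribosomal protein, without the words that mark chloroplast or mitochondrial ribosomes. Expression values played no part in the choice. This gave 124 of the 65535 contigs analysed here, and 124 of the 14514 contigs with a hit in these genera. Of the members, 48 belonged to the small subunit, 72 to the large subunit and 4 to the acidic stalk of the large subunit. Their first hits were to Fragaria (108 contigs), Prunus (10), Malus (4) and Pyrus (2), so that names follow those of other rose family species. One contig, TR1218|c0_g1_i1, was kept by the rule although its hit text also carried the word mitochondrial, and it had 11 fragments in all.

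The ribosome joins amino acids into protein and is built from ribosomal RNA and a large set of ribosomal proteins. The small subunit reads the messenger RNA, the large subunit forms the peptide bond, and the stalk of acidic P proteins recruits the elongation factors that drive each step. In plants most cytosolic ribosomal proteins are encoded by several gene copies, and their transcripts are known to be abundant in growing and dividing tissue.

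Total RNA from untreated greenhouse plants was sequenced after removal of ribosomal RNA, with 2 leaf libraries (leaf 1, leaf 2) and 2 petal libraries (petal 1, petal 2). No genotype, age or flower stage was given in the labels, all 4 libraries share the species and the growing place, and leaf and petal each hold many cell types. Whether libraries of 1 tissue were made from different plants is not stated, so p-values below measure only the spread between these libraries, which may be technical. Abundance was given as FPKM (fragments per kilobase of contig, divided by the mapped fragments of the library), a level per length, with 1 value per contig and library. In such bulk samples fewer cells of a type and less RNA per cell cannot be told apart.

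From the steps of the low FPKM values the mapped depth was, rounded, 18600000 to 26700000 fragments per library, of which the contigs analysed here took 0.800% to 2.93%. Petal 2 stood apart. Rose family hits took 19.7% of its fragments in the table, against 77.1% to 79.4% in the other 3 libraries, and grey mould hits took 27.9% in petal 2 against at most 0.0762% elsewhere. Aphid hits took 6.46% and 3.43% in petal 1 and petal 2, and 0.280% and 0.368% in leaf 1 and leaf 2. Since FPKM are scaled by all mapped fragments, the share of other organisms enters the value of every rose contig. Glycine cleavage system H protein, a mitochondrial enzyme component of leaf photorespiration, stood at 1422 and 1030.2 FPKM in leaf against 2.91 and 3.08 FPKM in petal (sum of 2 contigs), and the scent enzyme NUDX1 stood at 0.740 and 0.0900 FPKM in leaf against 358 and 36.4 FPKM in petal (sum of 2 contigs). These markers went with the tissue labels, and others did not. The whole leaf list (23 contigs) summed to 1436 to 1882 FPKM in leaf and 80.5 to 179.6 FPKM in petal, with glycine cleavage H protein as most of the leaf sum. The petal list (33 contigs) summed to 20.9 to 58.8 FPKM in leaf and 365 to 499 FPKM in petal. Of this, flavonoid 3-O-glucosyltransferase contigs gave 12.8 and 11.5 FPKM in leaf 1 and leaf 2, and 131 and 302 FPKM in petal 1 and petal 2. Of these contigs 0 had at least 20 fragments. Chlorophyll a-b binding proteins overlapped between the tissues, the chalcone synthase contig was at 0, dihydroflavonol reductase stood at 3.97 and 30.4 FPKM in leaf against 7.66 and 0 FPKM in petal, and of 4 germacrene D synthase contigs with at least 20 fragments 1 was higher throughout in leaf and 0 in petal. Contigs of the Rubisco small chain and of photosystem I were not among those analysed here.

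Most ribosomal protein contigs were short pieces with few or no fragments. Their length was 174 to 1306 nt with a median of 268.5 nt, and 53 of 124 (42.7%) were listed at 0 in all 4 libraries, against 45.8% of all contigs with a rose family hit. Of the small subunit contigs 26 of 48 (54.2%) were at 0, and of the large subunit contigs 27 of 72 (37.5%). None of the 7 members shorter than 197 nt had a fragment, and no contig of that length did in the whole table. A fragment was found for 12 of 38 members of 197 to under 250 nt, for 21 of 36 of 250 to under 300 nt, for 21 of 26 of 300 to under 400 nt and for all 17 of 400 nt or more. A value of 0 in so short a contig is thus no measure of the gene it came from. The members stood for 56 protein families, and 40 of these had at least 1 contig with a fragment.

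**Figure D1:**
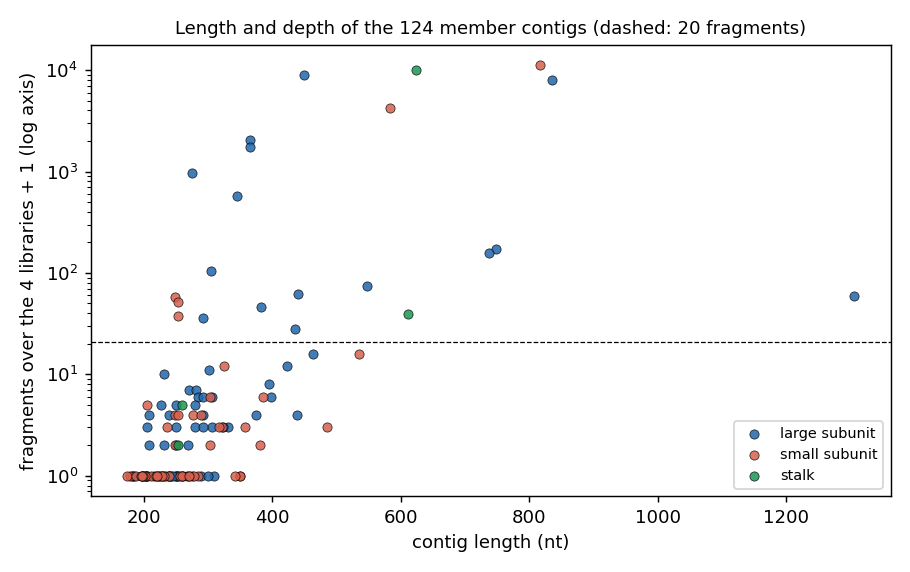
Length of each of the 124 ribosomal protein contigs (x axis, nt) against its fragments summed over the 4 libraries plus 1 (y axis, log scale), coloured by class, with a dashed line at 20 fragments. All 17 contigs of 400 nt or more had a fragment, and the 22 contigs with at least 20 fragments lie above the line.

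Depth was concentrated in a few members. At least 20 fragments over the 4 libraries were found for 22 of 124 members (17.7%, against 7.81% of all rose family hits), namely 5 small subunit, 15 large subunit and 2 stalk contigs of 13 families. These 22 held 99.6% of the 48861 fragments of all members, and the 5 deepest contigs alone held 86.8%. The other 49 members with a fragment had 1 to 15 fragments each. Because 1 fragment on a contig of 250 nt is worth 5.24 to 7.71 FPKM, and on one of 800 nt 0.0773 to 0.105 FPKM, a high FPKM in a short contig can rest on very few fragments. The 40S S18-like contig TR11195|c0_g1_i1, named here after its values were seen, stood at 121 FPKM in leaf 1 on 4 fragments and at 0 in the other 3 libraries.

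Among members with at least 20 fragments, those higher in petal outnumbered those higher in leaf. Both petal libraries were above both leaf libraries in 11 of 22 members, and both leaf libraries were above both petal libraries in 2. The background share was 27.3% (310 of 1134 rose family hits with at least 20 fragments) for petal and 22.2% (252 of 1134) for leaf. The median difference of mean log2(FPKM + 1), petal minus leaf, was 0.73 over the 22 members and 0.10 over the background. A member could pass 20 fragments through either tissue, so this count holds for the members that passed and not for all 124. With at least 100 fragments petal was higher throughout in 9 of 12 members (background 36.2% of 229) and leaf in 0 (background 25.8%). Of the 9 members with at least 500 fragments, all 9 had a difference above 0 (0.52 to 1.57, median 1.32), and 7 were higher in both petal libraries, where 62.2% and 45.6% of the 90 rose family hits of that depth did the same, and 0 were higher in both leaf libraries (background 25.6%). These 9 contigs do not stand for 9 separate proteins. Among them are 3 L10a-2 contigs, 2 of them from 1 component of the assembly, and L7a-2-like and L7a-2 belong to the same family. Each library was also rescaled to the same FPKM sum. This lowers petal 2, where rose family hits took 19.7% of the fragments in the table. It left 4 of 22 members higher in both petal libraries, near the background of 17.0% under this scaling, where leaf was higher throughout in 27.6% of the background. Of the 9 deep members 8 stayed above 0 (45 of 90 in the background), with a median of 0.70 and S14-2 at -0.10, and 3 were higher in both petal libraries (background 21.1%). Under this scaling the median over the 1134 rose family hits was -0.18. With equal rose family fragments instead, the 9 deep members had a median of 1.12 and the 1134 hits one of -0.013.

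**Figure D2:**
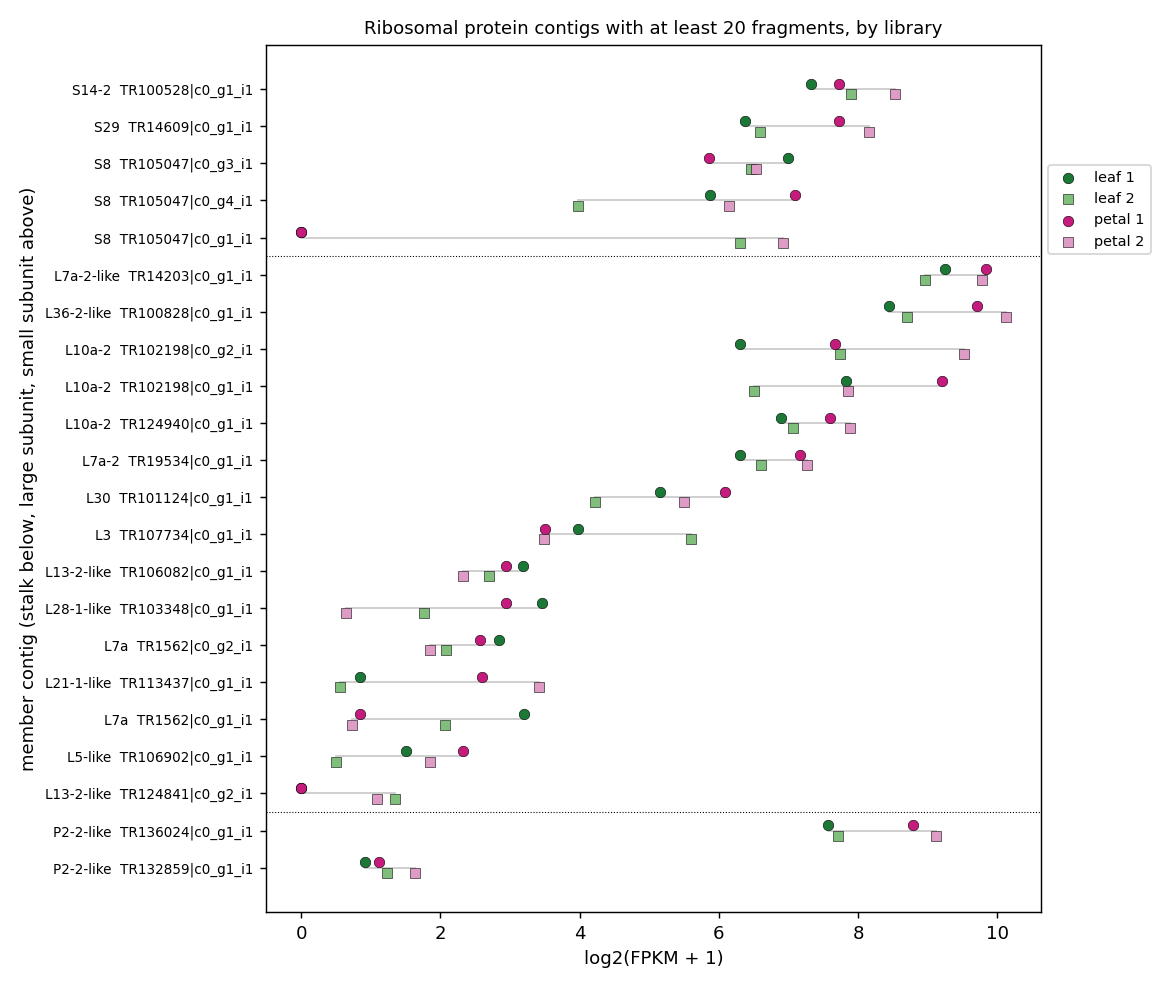
Level of the 22 ribosomal protein contigs with at least 20 fragments on the log2(FPKM + 1) scale (x axis), with 1 point per library (green leaf, pink petal, circles number 1, squares number 2). Dotted lines separate the small subunit (top), the large subunit and the stalk (bottom). The pink points of L36-2-like, S29, the deep P2-2-like contig and L7a-2-like lie to the right of both green points.

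The most abundant stalk contig was higher in both petal libraries. The 60S acidic P2-2-like contig TR136024|c0_g1_i1 (624 nt, 9968 fragments) encodes a P2 protein, which pairs with P1 on the stalk. It measured 188 and 209 FPKM in leaf 1 and leaf 2 against 442 and 556 FPKM in petal 1 and petal 2. The groups did not overlap, and the mean was 2.52-fold higher in petal (198 ± 14.9 FPKM in leaf, 499 ± 81.1 FPKM in petal, SD, n = 2). The log2 difference was 1.32 (SE 0.52, limma, adjusted p = 0.458), which did not pass the threshold of 0.05.

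The other stalk contigs were low. A P2-2-like contig, TR132859|c0_g1_i1 (612 nt, 38 fragments, hit e-value 2e-13), stood at 0.880 and 1.35 FPKM in leaf against 1.17 and 2.11 FPKM in petal, and the tissues overlapped. A further P2-2-like contig of 260 nt, TR122549|c0_g1_i1, was at 18.4 FPKM in petal 1 on 4 fragments and at 0 elsewhere. The P0-like contig TR125706|c0_g1_i1, from the protein that anchors the stalk to the ribosome, was at 4.78 FPKM in petal 2 on 1 fragment and at 0 elsewhere. Neither of these last values can show a difference between tissues at this depth.

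Of the large subunit, the L36-2-like contig was the deepest, and it passed the test in some fits. TR100828|c0_g1_i1 (449 nt, 9007 fragments) encodes L36, a small basic protein of the large subunit. It measured 347 and 416 FPKM in leaf 1 and leaf 2 against 837 and 1110.4 FPKM in petal 1 and petal 2. Each petal library was above each leaf library, and the mean was 2.55-fold higher (382 ± 48.8 against 974 ± 193 FPKM, SD, n = 2). The log2 difference was 1.34 (SE 0.49, limma, adjusted p = 0.305) in the main fit and 1.34 (SE 0.16, limma, adjusted p = 0.0221) in the fit over contigs with a mean of at least 1 FPKM. In the latter it was the only member called of 54 tested, where 9 of 18894 contigs (0.0476%) were called, and 10 of 54 members had an unadjusted p under 0.05 (background 1.33%). On simulated libraries this fit also called unchanged contigs, so the call is not firm.

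L10a, the protein of the mobile arm of the large subunit that helps the spent transfer RNA to leave, was represented by 3 deep contigs with the product name L10a-2. TR124940|c0_g1_i1 (836 nt, 8014 fragments) stood at 117 and 132 FPKM in leaf against 193 and 236 FPKM in petal. Its groups did not overlap, with a mean 1.72-fold higher in petal and a log2 difference of 0.77 (SE 0.56, limma, adjusted p = 0.515).

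The other L10a-2 contigs, TR102198|c0_g1_i1 (365 nt) and TR102198|c0_g2_i1 (366 nt), came from 1 component of the assembly, and reads of near-identical copies may be split between them. TR102198|c0_g1_i1 measured 227 and 89.9 FPKM in leaf 1 and leaf 2 against 588 and 231 FPKM in petal 1 and petal 2. TR102198|c0_g2_i1 showed the reverse order of numbers, at 78.2 and 214 FPKM in leaf against 203 and 735 FPKM in petal. Thus the first contig took 74.3% and 74.4% of the FPKM of the pair in leaf 1 and petal 1, and 29.6% and 23.9% in leaf 2 and petal 2, so the split followed the library number and not the tissue. Summed, the pair stood at 304.7 and 303.6 FPKM in leaf against 791 and 966 FPKM in petal, 2.89-fold higher on average, with leaf libraries that differed far less than either contig alone. The log2 differences of the single contigs were 1.36 (SE 0.54, limma, adjusted p = 0.458) and 1.57 (SE 0.54, limma, adjusted p = 0.211). Leaving out 1 library moved the first from 0.69 (without petal 1) to 2.03 (without petal 2) and the second from 0.64 (without petal 2) to 2.50 (without petal 1).

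**Figure D3:**
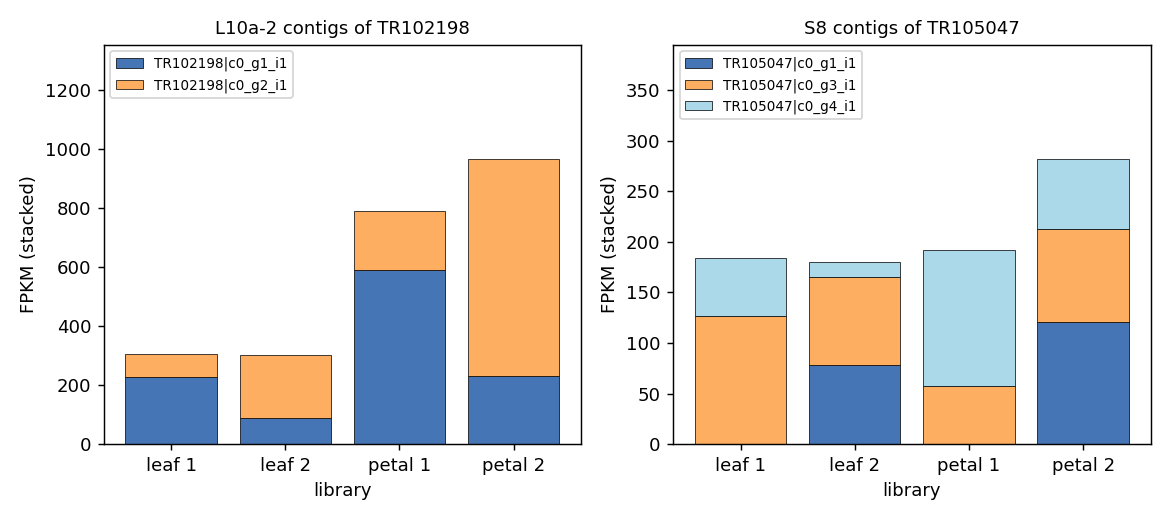
FPKM per library (y axis, stacked) of the L10a-2 contigs of 1 assembly component (left) and of the S8 contigs of another (right, the contig at 0 in all libraries is left out). The stacks of L10a-2 reach 304.7, 303.6, 791 and 966 FPKM while the share of each contig changes with the library number, and the S8 contig TR105047|c0_g1_i1 is present in leaf 2 and petal 2 only.

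L7a, which lies on the surface of the large subunit, gave 4 contigs with at least 20 fragments, which differed in direction. The L7a-2-like contig TR14203|c0_g1_i1 (276 nt, 966 fragments) stood at 605 and 499 FPKM in leaf against 913 and 879 FPKM in petal, with no overlap, a ratio of 1.62 and a log2 difference of 0.70 (SE 0.48, limma, adjusted p = 0.515). The L7a-2 contig TR19534|c0_g1_i1 (346 nt, 572 fragments) stood at 77.8 and 96.1 FPKM in leaf against 143 and 153 FPKM in petal, 1.70-fold higher in petal. Both contigs were higher in each petal library than in each leaf library on the FPKM as deposited. With equal FPKM sums the log2 differences were 0.084 for L7a-2-like and 0.15 for L7a-2, and with quantile normalization L7a-2-like turned to -0.15.

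The remaining L7a contigs, again from 1 component, were low, had weak hits, and included 1 that was higher in leaf. TR1562|c0_g1_i1 (548 nt, 73.6 fragments, hit e-value 3e-12) stood at 8.23 and 3.19 FPKM in leaf against 0.790 and 0.660 FPKM in petal. It had the lowest log2 difference of the 22 members, -1.85, and the leaf mean was 7.88-fold that of petal. TR1562|c0_g2_i1 (748 nt, 169 fragments, hit e-value 5e-12) stood at 6.15 and 3.24 FPKM in leaf against 4.95 and 2.59 FPKM in petal, and its tissues overlapped. In the sum of this pair leaf 1 was highest (14.4 FPKM) and petal 2 lowest (3.25 FPKM), and leaf 2 (6.43 FPKM) lay close to petal 1 (5.74 FPKM). With hits this weak the name of these contigs is uncertain.

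Other large subunit contigs were lower and mixed. The L21-1-like contig TR113437|c0_g1_i1 (738 nt, 157 fragments) had the highest log2 difference, 2.30, and stood at 0.800 and 0.470 FPKM in leaf against 5.03 and 9.65 FPKM in petal. L30, a small protein known in yeast to bind the transcript of its own gene, stood at 34.7 and 17.6 FPKM in leaf against 66.7 and 44.2 FPKM in petal (TR101124|c0_g1_i1, 305 nt, 103 fragments). Both were higher in each petal library than in each leaf library, and the log2 difference of L30, 1.10, came to -0.082 with quantile normalization. L3, which reaches towards the peptide bond forming centre, was higher in both leaf libraries, at 14.8 and 47.4 FPKM against 10.34 and 10.27 FPKM in petal, on 35 fragments (TR107734|c0_g1_i1, 293 nt). The L5-like contig TR106902|c0_g1_i1, outside the naming rule and given here because it completes the count of 11, stood at 1.84 and 0.410 FPKM in leaf against 4.02 and 2.62 FPKM in petal on 27 fragments. Its hit was weak as well (e-value 4e-11), so its name is uncertain.

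Contigs of L28 and L13, structural proteins of the large subunit, followed the library number. The L28-1-like contig TR103348|c0_g1_i1 (441 nt, 61 fragments) measured 10.04 and 6.72 FPKM in leaf 1 and petal 1 against 2.39 and 0.560 FPKM in leaf 2 and petal 2. The L13-2-like contig TR124841|c0_g2_i1 (1306 nt, 57.8 fragments, hit e-value 8e-15) reached 1.55 and 1.12 FPKM in leaf 2 and petal 2 and was listed at 0 in leaf 1 and petal 1. A further L13-2-like contig, TR106082|c0_g1_i1 (383 nt, 45 fragments), measured 8.10 and 6.71 FPKM in leaf 1 and petal 1 against 5.47 and 4.03 FPKM in leaf 2 and petal 2. In these 3 contigs the tissues overlapped while the numbers did not.

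The small subunit gave 2 abundant contigs that differed in their spread. S29, a small zinc-binding protein in the head of the subunit, stood at 82.1 and 95.0 FPKM in leaf against 210.2 and 284 FPKM in petal (TR14609|c0_g1_i1, 584 nt, 4215 fragments). The groups did not overlap, the mean was 2.79-fold higher in petal (88.5 ± 9.11 against 247 ± 52.0 FPKM, SD, n = 2), and the log2 difference was 1.46 (SE 0.57, limma, adjusted p = 0.458). S14-2, from the platform of the subunit near the exit of the messenger RNA, was the deepest member with 11193 fragments (TR100528|c0_g1_i1, 817 nt). It measured 159 and 238 FPKM in leaf 1 and leaf 2 against 211 and 369.9 FPKM in petal 1 and petal 2. Leaf 2 was above petal 1, so the tissues overlapped, and the log2 difference was 0.52 (SE 0.54, limma, adjusted p = 0.515). Within each number petal was higher, 1.33-fold in number 1 and 1.55-fold in number 2.

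S8, a protein of the small subunit body, was spread over 4 contigs of 1 component. TR105047|c0_g3_i1 (249 nt, 57 fragments) stood at 126 and 87.2 FPKM in leaf against 57.1 and 92.0 FPKM in petal, with overlap. TR105047|c0_g4_i1 (253 nt, 50.9 fragments) stood at 57.8 and 14.7 FPKM in leaf against 135 and 69.7 FPKM in petal, with no overlap and a log2 difference of 1.69 (SE 0.72, limma, adjusted p = 0.515). TR105047|c0_g1_i1 (253 nt, 36.2 fragments) reached 78.2 and 120.4 FPKM in leaf 2 and petal 2 and was listed at 0 in leaf 1 and petal 1, and the fourth contig was at 0 in all libraries. The S8 contigs together gave 184 and 179.97 FPKM in leaf and 192 and 282 FPKM in petal, a ratio of 1.30, so the 2.83-fold higher petal mean of TR105047|c0_g4_i1 was not that of the S8 sum.

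The order by library number seen in L10a-2, S8, L28 and L13 was also found in contigs of other products. Both libraries of 1 number lay above both of the other in 8 of 22 members, beside 32.5% of the 1134 rose family hits with at least 20 fragments, and the crossed order (leaf 1 with petal 2) occurred in 1 of 22 members, beside 12.4%. Of the same 1134 contigs, 174 (15.3%) were at 0 in both libraries of 1 number and above 0 in both of the other, and 6 showed such zeros in the crossed order. Neither the labels nor the methods say what the numbers stand for, and the cause was not tested. Read within the numbers, petal was above leaf in both pairs in 14 of 22 members (background 31.6%) and leaf above petal in both in 5 (background 27.2%). In all 9 members with at least 500 fragments petal was higher in both pairs (background 52.2%).

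**Figure D4:**
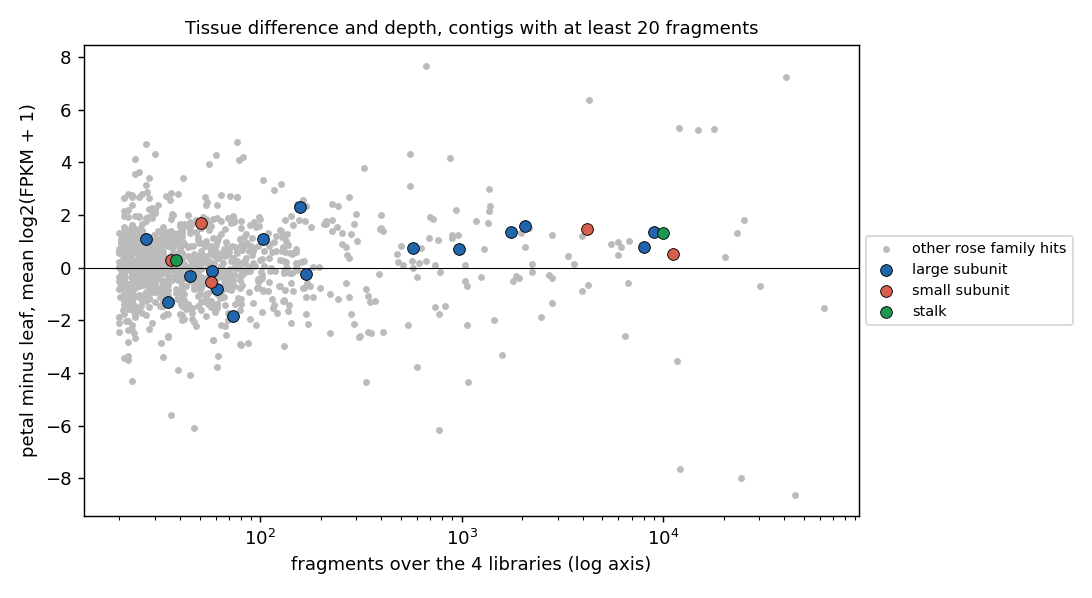
Petal minus leaf difference of mean log2(FPKM + 1) (y axis) against fragments over the 4 libraries (x axis, log scale) for rose family hits with at least 20 fragments, members in colour by class and other contigs in grey. The 9 members with at least 500 fragments lie between 0.52 and 1.57, while the shallower members lie on both sides of 0.

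In the main fit no ribosomal protein was called. On simulated libraries of the same depths this fit did not call changed contigs either, so the absence of calls says little about the members. Limma was run on log2(FPKM + 1) over 2157 contigs whose mean and SD both reached 10 FPKM, and 24 (1.11%) were called at an adjusted p under 0.05, 14 of them higher in petal. Of the 19 members that passed this filter 0 were called, and 5 of the 19 had fewer than 20 fragments. At an unadjusted p under 0.05 there were 7 of 19 members, all 7 higher in petal, beside 102 of 2157 contigs (4.73%). Over the tested contigs the median log2 difference was 2.21, while over rose family hits with at least 20 fragments it was 0.10. With a robust variance prior 5 of 19 members were called, all higher in petal, beside 28 of 2157 contigs, 14 of them higher in petal. The 5 were L36-2-like, P2-2-like TR136024|c0_g1_i1, L7a-2-like, S29 and L10a-2 TR124940|c0_g1_i1. Limma-voom on the recovered fragments called 2 members (L36-2-like with adjusted p = 0.0024 and P2-2-like with adjusted p = 0.0032). It called 112 of 2157 contigs, 102 of them higher in petal. Neither of these fits was run on the simulated libraries. With equal FPKM sums or quantile normalization 0 members were called, and 0 members had an unadjusted p under 0.05.

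Summed over all members, whatever their depth, the level was higher in petal. All 124 contigs together gave 2339 and 2318 FPKM in leaf 1 and leaf 2 and 4465 and 5044 FPKM in petal 1 and petal 2, so the mean was 2.04-fold higher in petal (2328 ± 14.7 against 4754 ± 409 FPKM, SD, n = 2). Both petal libraries were above both leaf libraries, and an exact two-sided permutation test gave p = 0.333, the smallest that 2 against 2 libraries allow. Large subunit contigs summed to 1575 and 1578 FPKM in leaf and to 3347 and 3522 FPKM in petal, a ratio of 2.18. The stalk ratio was 2.57, from 189 and 210.3 FPKM in leaf and 461 and 563 FPKM in petal. Small subunit contigs summed to 575 and 529.8 FPKM in leaf and to 657 and 958 FPKM in petal, a ratio of 1.46. The S18-like contig TR11195|c0_g1_i1 gave 121 FPKM of the leaf 1 sum on 4 fragments, and without it the ratio was 1.64. The difference between the subunits was not tested. Without the 5 deepest contigs the sum of the rest was still 1.89-fold higher in petal. With equal FPKM sums per library the ratio over all members was 1.43 and that of the small subunit 0.966, so the direction of the small subunit sum turned with this scaling. Short contigs weigh heavily in a sum of FPKM, and per 1000000 mapped fragments the members took 307 and 368 in leaf and 664 and 881 in petal.

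**Figure D5:**
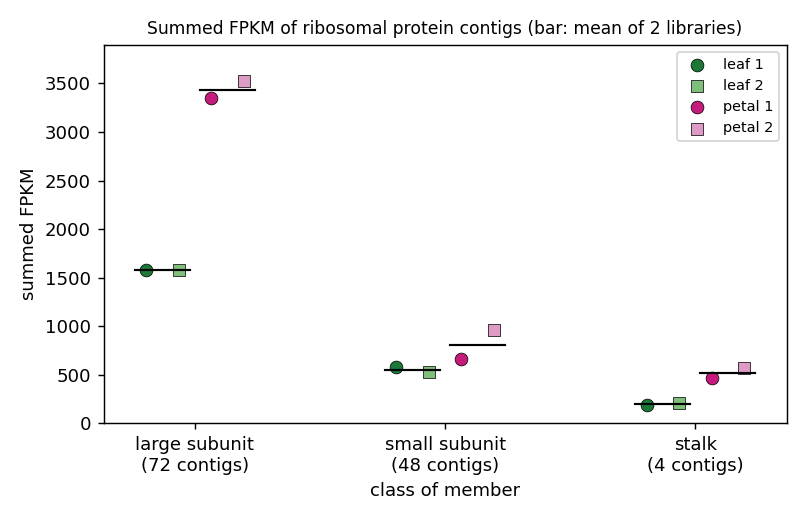
Summed FPKM (y axis, from 0) of the large subunit, small subunit and stalk contigs in each library, with a bar at the mean of the 2 libraries of a tissue. Petal points lie above leaf points in each class, and petal 1 (657 FPKM) is close to leaf 1 (575 FPKM) in the small subunit.

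Members under 20 fragments carried too little to compare. In leaf 1, leaf 2, petal 1 and petal 2 a fragment was found in 15, 13, 29 and 22 of these 49 members, with 43, 29, 75 and 52 fragments in total. The same shares over the 6738 rose family hits under 20 fragments were 42.5%, 36.0%, 44.7% and 46.3%. At 0 in both leaf libraries were 24 of 49 (background 36.9%), at 0 in both petal libraries 11 (background 28.5%), and 14 had a fragment in both tissues. In 27 of the 49 all fragments came from a single library, so no single contig among them can be compared between the tissues at this depth. With no minimum at all, 21 of 71 members were higher in both petal libraries (background 12.3% of 7872).

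Of the 22 members with at least 20 fragments, 14 had a hit with an e-value of at most 1e-50, among which petal was higher throughout in 9 (background 34.5%) and leaf in 0 (background 21.0%). All 9 members with at least 500 fragments were among these 14, so the hit and the depth cannot be told apart here. Of the 8 with weaker hits 2 were higher in petal (background 22.3%) and 2, L7a TR1562|c0_g1_i1 and L3, higher in leaf (background 23.1%). This split was made after the values were seen and the difference was not tested.

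Ribosomal protein contigs with hits outside the rose family genera were also present, among them hits to grey mould, spiders and Marssonina. The 222 contigs with a ribosomal protein hit outside the rose family genera took 74.8, 37.7, 16.9 and 799 of each 1000000 mapped fragments in leaf 1, leaf 2, petal 1 and petal 2. Hits to other plants were not left out of the 222, so these values do not measure RNA of other organisms alone. In petal 1 the 222 contigs had 315 fragments. The members took 664 in petal 1 and 881 in petal 2 on the same scale, against 307 and 368 in leaf. All rose family hits together took 0.673% and 0.617% of the depth in leaf and 0.954% and 0.578% in petal 1 and petal 2. The part of these shares in the difference of the members was not tested. The 8 grey mould contigs among the 222 had 0 fragments in both leaf libraries, 2 in petal 1 and 7995 in petal 2. The 19 contigs with spider hits had 1, 0, 0 and 7701 fragments in leaf 1, leaf 2, petal 1 and petal 2. The 55 with hits to the genus Marssonina lay mostly in leaf, with 1689, 645, 7 and 188 fragments in the same order. A contig outside the rule, TR12345|c0_g1_i1 (266 nt), whose first hit was a soybean 60S L23-like protein, stood at 206 and 209 FPKM in leaf against 414.5 and 553 FPKM in petal.

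Few other parts of the translation machinery were deep enough to set beside the ribosomal proteins. Of 28 initiation factor contigs 1 had at least 20 fragments, an eIF3 subunit M that reached 1.11 and 2.24 FPKM in leaf 2 and petal 2 and was listed at 0 in leaf 1 and petal 1. Of 17 elongation and release factor contigs 2 did, and both overlapped between the tissues. Elongation factor 2, which moves the ribosome along the messenger RNA, stood at 319 and 376 FPKM in leaf against 432 and 299 FPKM in petal on 64 fragments (TR17296|c0_g1_i1, 214 nt). Of 44 ribosome assembly contigs 4 did, with both petal libraries above both leaf libraries in 2 of them, beside the 27.3% of all rose family hits of that depth. The homolog of ribosome production factor 2, an assembly factor of the large subunit known from yeast, stood at 42.7 and 39.5 FPKM in leaf against 63.7 and 79.1 FPKM in petal (TR19248|c0_g1_i1, 6162 fragments, 1.74-fold, limma, adjusted p = 0.515), whereas the NOP58-like contig, from a core protein of the particles that methylate ribosomal RNA, followed the number with 40.6 and 55.4 FPKM in number 1 and 124 and 129 FPKM in number 2 (TR113037|c0_g1_i1). Of 51 contigs for chloroplast and mitochondrial ribosomal proteins 6 did, of which 2 had petal above leaf throughout and 0 the reverse, counts too small to set apart from the background. The 2 contigs for the TOR kinase pathway, which controls ribosome production, were below 20 fragments. In the main fit 0 contigs of these lists were called.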

How the data were processed

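Per the labels and the methods, the authors removed ribosomal RNA, sequenced total RNA in pairs of 150 nt reads, assembled the 4 libraries with Trinity (2.0.6), searched contigs against NCBI databases (e-value limit 1e-05) and estimated abundance with RSEM and bowtie. The deposited values are FPKM per contig and library. The sheet analysed here holds part of the assembly, and no genome or sequence was used.

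The fragments behind each FPKM were read from the steps of low values, where 98.7% to 98.8% of values of 0.3 FPKM or more that came to at most 10 fragments on contigs under 500 nt lay within 0.1 of a whole number. The tissues were compared by limma (3.58.1, R 4.3.3) with a trended prior on log2(FPKM + 1), over contigs with a mean and SD of at least 10 FPKM, with Benjamini-Hochberg adjustment over all contigs tested, two-sided, threshold 0.05. FPKM are not counts, so limma on the log scale was the main test, and limma-voom on the recovered fragments was an alternative only. On simulated libraries of the same depths the main fit called none of the changed contigs and no unchanged one. The fit with a mean of at least 1 FPKM also called unchanged ones. The simulated main fit held 1295 contigs against 2157 in the data. It gave all contigs the same dispersion and had no effect of library number, so it stands for these data only in part. Named were members called, the 10 most abundant per subunit and the 3 highest and 3 lowest differences among those with at least 20 fragments, all stalk contigs, and products with several such contigs. The members to name and the lists were chosen with earlier results of these data known, while membership followed the hit text alone. Other pseudocounts, filters, scalings, priors, a replicate block, limma-voom and leaving out each library were tried.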

Additional observations from a re-analysis of the deposited data

How the results depend on the processing

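Precision was limited by 2 libraries per tissue and by the few fragments on most members. RNA of other organisms, seen most in petal 2, enters every FPKM value of a library. Its share was known only among the contigs analysed here, which took 0.800% to 2.93% of the depth. The share in the whole libraries was not measured, and its effect on precision was not tested. The main test called 24 contigs. It called 9 with a mean of at least 1 FPKM, 3 with no filter, 0 with at least 20 fragments (299 by unadjusted p), 1 with rose family hits of at least 20 fragments, 10 with equal FPKM sums, 9 with quantile normalization, 0 with no trend (14 by unadjusted p) and 112 by limma-voom, and 305 (without petal 2) to 810 (without petal 1) when any 1 of the 4 libraries was left out, where the lone library is assumed to vary like the other tissue. Of members 0 were called, against 1 with a mean of at least 1 FPKM, 5 with a robust prior, 2 by limma-voom and 0 to 3 without 1 library (1 without leaf 2, 1 without petal 1, 3 without petal 2). The calls of members without 1 library fell on contigs of 2 to 4 fragments, and that without leaf 2 (S18-like TR11195|c0_g1_i1) was higher in leaf. With the replicate number as a block 51 contigs and 2 members were called (S8 TR105047|c0_g4_i1, adjusted p = 0.0246, and an L22-2 contig of 9 fragments, adjusted p = 0.0421). Nothing in the labels pairs the libraries, and deviations of same-numbered libraries correlated at 0.93 over the 22 members and 0.50 over rose family hits.

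The count of members higher in both petal libraries was 11 of 22 (background 27.3%), with 4 under equal FPKM sums (17.0% of the background), 21 of 71 with no fragment minimum (12.3%) and 11 to 15 without 1 library. The count higher in both leaf libraries was 2 (background 22.2%), with 4 under equal rose family fragments (281 of 1134 in the background). It was 0 of 12 with at least 100 fragments (background 25.8%) and 0 of 14 with an e-value of at most 1e-50 (background 21.0%, added after seeing the data). Without 1 library it was 3 to 6 (6 without leaf 2, 5 without petal 1). Groups separate more easily without 1 library, and no background share was counted there. The median log2 difference of 0.73 (background 0.10) became 0.12 with equal FPKM sums (background -0.18) and 0.53 with equal rose family fragments (background -0.013). It became 1.21 with at least 100 fragments (background 0.25), 0.82 with no fragment minimum, 1.05 with the e-value limit and 0.64 to 0.81 without 1 library. The summed ratio of 2.04 became 1.43 and 1.85 with equal FPKM sums and equal rose family fragments, with 1.92 to 2.17 without 1 library, that of the large subunit (2.18) became 1.55 and 1.96, with 2.09 at 20 fragments or more and 2.12 to 2.23 without 1 library, and that of the small subunit (1.46) became 0.966 with equal FPKM sums and 1.19 to 1.73 without 1 library. Single contigs changed sign in 7 of 269 cases. With equal FPKM sums S14-2 came to -0.10 and S8 TR105047|c0_g1_i1 to -0.32, with quantile normalization S14-2 came to -0.14, L7a-2-like to -0.15 and L30 to -0.082, and S8 TR105047|c0_g1_i1 ran from -3.15 (without petal 2) and -2.85 (without leaf 1) to 3.77 (without petal 1). The cause of these changes was not tested.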
